A study of Mus musculus with 45 samples.

Results

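The Bcl11b region is a 1 Mb interval of mouse chromosome 12, from 109 to 110 Mb on the mm9 build, named after the gene Bcl11b. Its members are all domains of histone H3 lysine 9 acetylation (H3K9ac) in the deposited set whose midpoint lies in the interval. There were 60 of them among 44165 domains of the genome. Membership depends on position alone, but the interval was selected with earlier results of these libraries known, and which values it was chosen on is not recorded. Comparisons of disease model and control in the interval are therefore described by values, standard errors (SE) and counts. Calls at a test threshold are given as part of that description, and no p-value is printed for these comparisons.

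H3K9ac is laid down by lysine acetyltransferases at active promoters and enhancers and is removed by histone deacetylases. Broad acetylated domains are known to lie over genes that define the identity of a cell type. Bcl11b, also called Ctip2, encodes a zinc-finger transcription factor that in the hippocampus marks pyramidal neurons of CA1 and granule neurons of the dentate gyrus, and it is needed for the differentiation of these neurons. In the RefSeq gene table for GRCm38.p6, Bcl11b is followed by Setd3, which encodes a histidine methyltransferase of actin, and Ccnk, which encodes cyclin K. Cyp46a1, further along, encodes the neuronal enzyme that turns cholesterol into 24-hydroxycholesterol, Evl encodes an actin regulator, and Yy1 encodes a widely expressed zinc-finger transcription factor. No annotation of the mm9 build was used here, so domains are named by coordinates alone. Which domain lies on which of these genes was not determined, and the label Bcl11b was not checked against a gene model.

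H3K9ac was profiled by chromatin immunoprecipitation and sequencing in hippocampus, in 23 libraries that form 8 groups. The tau series holds mice carrying human tau with the P301S mutation (Tau) and wild type controls (WT): 2 Tau and 3 WT libraries from females aged 6 months, and 3 Tau and 3 WT libraries from males aged 11 months. Age and sex change together in this series and cannot be told apart. The CK-p25 series holds female CK-p25 mice, an inducible line that makes p25, the truncated Cdk5 activator, in neurons of the forebrain, and CK controls. These were sampled 2 weeks after induction at 3.5 months of age and 6 weeks after induction at 4.5 months, with 3 libraries of each genotype at each time. Age and time since induction thus change together. The labels used here do not state the promoter of the tau transgene or spell out the alleles of the CK controls. They also leave unstated whether every library came from its own animal, so the errors cover the spread between libraries, which may be partly technical. In whole hippocampus, fewer cells that carry the mark and less acetylation per cell cannot be told apart, and the tissue label was not checked against marker genes.

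The RefSeq promoter of the gene that names the region is shown to identify it. It covers 250 bases before and 50 after the annotated start of Bcl11b, from GRCm38.p6, on the minus strand and 5′ to 3′, with CG dinucleotides in capitals.
Bcl11b: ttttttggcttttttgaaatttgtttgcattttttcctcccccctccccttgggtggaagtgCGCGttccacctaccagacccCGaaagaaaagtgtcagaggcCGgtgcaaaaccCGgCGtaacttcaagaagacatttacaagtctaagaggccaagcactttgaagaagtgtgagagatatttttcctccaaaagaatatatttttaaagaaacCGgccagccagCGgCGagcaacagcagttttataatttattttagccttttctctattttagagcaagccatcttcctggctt
This window holds 9 CG dinucleotides, against a median of 7 over 32851 RefSeq promoters of the same length, and 45.8% of those hold as many or more. Its GC content is 43%, against a median of 52.7%. The letters GGGCGG were not found on either strand of the window and occur in 35.7% of all these promoters. Because the builds differ, the window was not placed against any domain.

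Libraries of the tau series held 4097974 to 6181925 reads in domains, of which 3258 to 5878 fell in the interval. Libraries of the CK-p25 series held 996369 to 4133003 reads, of which 913 to 3667 fell in the interval, and the shallowest were CK and CK-p25 replicate 3 at 6 weeks. The cross correlation, a measure of how far a library is enriched over background that the labels give, was 0.228 ± 0.0263 (SD, n = 3) in Tau and 0.313 ± 0.0250 (SD, n = 3) in WT at 11 months, with no overlap. It was 0.243 ± 0.0164 (SD, n = 2) in Tau and 0.245 ± 0.00303 (SD, n = 3) in WT at 6 months. It was 0.167 ± 0.0234 (SD, n = 3) in CK-p25 and 0.138 ± 0.0368 (SD, n = 3) in CK at 2 weeks, and 0.131 ± 0.0527 and 0.0928 ± 0.0387 (SD, n = 3 each) at 6 weeks.

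The 60 domains covered 66049 bp, or 6.60% of the interval. They were 117 to 11743 bp wide, with a median of 885 bp against 776 bp over all domains, and 4 of them were 2 kb or wider. The 1 Mb before the interval held 4 domains and the 1 Mb after it held 18. Levels are normalised counts of reads in domains (CPM, a share of the library total), with libraries scaled by the trimmed mean of M values. Mean levels ran from 1.72 to 184 CPM, and per length from 6.55 to 31.7 CPM per kb. No domain lay in the first 100 kb, and 5 gaps of 50 kb or more split the members into 6 runs. The first run held 21 domains in 85.8 kb, from chr12:109159117 to 109244893. The split at 50 kb and the separate treatment of the first run were chosen after the values were seen.

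The widest member, chr12:109230759-109242501, stood out in size and level. At 11743 bp it was rank 23 by width among all 44165 domains and rank 177 by level, and the next widest member measured 3536 bp. In WT mice at 11 months it held 194, 215 and 191 CPM, and in Tau mice of that age 108, 138 and 103 CPM. In WT mice at 6 months it held 203, 196 and 190 CPM, and in Tau mice 204 and 197 CPM. All 3 Tau libraries thus lay below all WT libraries at 11 months, while the groups overlapped at 6 months. On the log2 scale the difference of Tau from WT was -0.79 ± 0.07 (SE) at 11 months, a level 0.578 times that of WT, and 0.03 ± 0.07 at 6 months.

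The same domain was lower in the CK-p25 model. That series shares no library with the tau series, but its values may also have been used to choose the interval. At 2 weeks CK controls held 207, 207 and 245 CPM and CK-p25 mice 186, 160 and 164 CPM. At 6 weeks CK controls held 221, 218 and 231 CPM and CK-p25 mice 147, 184 and 128 CPM. All CK-p25 libraries lay below all CK libraries at both times. The log2 differences were -0.36 ± 0.08 (SE) at 2 weeks and -0.51 ± 0.09 at 6 weeks. The difference at 2 weeks no longer passed the threshold without CK replicate 3 (-0.28) or without CK-p25 replicate 2, or with the DESeq2 Wald test. At 6 weeks it passed in each alternative run, and it was -0.42 without the shallow replicate 3 of both groups.

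The share of the interval's reads that lay in this domain moved with its level. It was 20.8% ± 1.14 in WT and 15.1% ± 2.08 in Tau mice at 11 months (SD, n = 3 each), and 21.5% ± 0.212 (SD, n = 3) and 22.04% ± 0.216 (SD, n = 2) at 6 months. It was 23.6% ± 1.56 in CK and 19.8% ± 0.968 in CK-p25 mice at 2 weeks, and 23.6% ± 0.951 and 18.6% ± 2.80 at 6 weeks (SD, n = 3 each). In Tau at 11 months and in CK-p25 at both times its reads were thus lower relative to those of its neighbours in the same libraries, a ratio that does not depend on the scaling between libraries. Of 713 domains of at least 5000 bp in the genome, 22 had a lower log2 difference than this domain at 11 months in Tau, 27 at 2 weeks and 27 at 6 weeks in CK-p25, and 450 at 6 months in Tau. The median over these broad domains was -0.13 at 11 months, and 308 of them (43.2%) were called lower in Tau. In CK-p25, 63 (8.84%) were called lower at 2 weeks and 119 (16.7%) at 6 weeks. Calls of a lower level were thus more frequent among broad domains than among all domains. Of the same 713 domains, 55 were called higher in Tau at 11 months, where 4.4% of all domains were. In CK-p25, 12 were called higher at 2 weeks and 22 at 6 weeks, where 1.51% and 1.32% of all domains were. Calls of a higher level were thus also more frequent among broad domains, though only slightly so at 2 weeks. Whether the frequency of calls follows the number of reads in a domain was not tested.

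**Figure D1:**
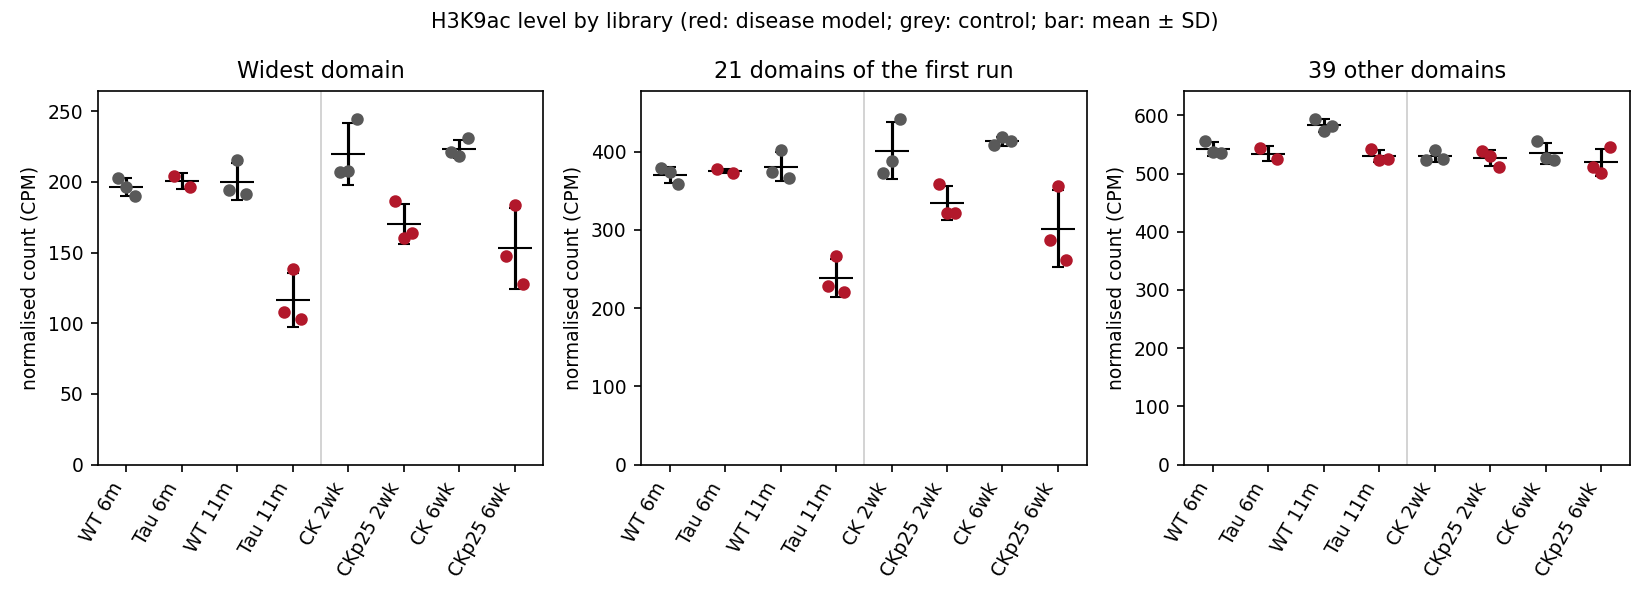
Each point is the normalised H3K9ac count (CPM, linear axis from 0) of 1 library, in the widest domain, in the 21 domains of the first run summed, and in the 39 other domains summed, with grey for controls and red for disease models. Bars give the mean ± SD of a group. In the first and second panels the Tau libraries at 11 months and the CK-p25 libraries at both times lie below their controls, and in the third panel the Tau libraries at 11 months (523 to 542 CPM) also lie below WT (572 to 594 CPM), while the CK-p25 and CK libraries overlap.

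Over the whole set, a member is called when its adjusted p in edgeR's quasi-likelihood test, Benjamini-Hochberg corrected over all domains tested, is under 0.05. At 11 months 13 of 60 members were called lower in Tau mice, where 7.56% of all 44105 domains tested were, and 1 was called higher, where 4.4% of all domains were. The median log2 difference was -0.26 over the members and 0.01 over all domains, and 41 of 60 members had a negative value. Since the interval was chosen with such values in view, nothing is read from these counts. At 6 months 0 members were called in either direction, as were 0% of all domains, and 0 members had an unadjusted p under 0.05 in edgeR, against 1426 of all domains. The median at 6 months was -0.01, and DESeq2 called 0 members.

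The 13 members lower at 11 months included, besides the widest domain, 7 others of the first run. The domain chr12:109243134-109244893 directly after the widest held 23.2, 28.4 and 24.4 CPM in WT mice and 15.5, 12.4 and 13.6 CPM in Tau mice, a log2 difference of -0.86 ± 0.14 (SE). The domain chr12:109213003-109216538, the second widest, held 30.0, 35.2 and 31.7 CPM in WT mice and 22.4, 23.99 and 22.6 CPM in Tau mice, a difference of -0.49 ± 0.11. The lowest log2 value of all members belonged to chr12:109210863-109211503, at -1.33 ± 0.30, with 6.92, 5.83 and 4.88 CPM in WT mice and 2.92, 2.18 and 1.84 CPM in Tau mice. The groups did not overlap in these domains, which the call itself largely fixes. Reads were few in the last of them, 9 to 16 in the Tau libraries. The other 4 of the first run called lower differed by -1.10 to -0.58. Most of these 4 lost the call without Tau replicate 3, with values still negative. The one at -0.58 also lost it without WT replicate 1, with the DESeq2 Wald test and with the compared groups alone.

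A further 5 domains called lower lay outside the first run. The domain chr12:109565432-109567315 held 52.5, 52.3 and 50.1 CPM in WT mice at 11 months and 30.3, 37.8 and 31.5 CPM in Tau mice, a log2 difference of -0.65 ± 0.09 (SE). Its CK-p25 libraries lay below all CK libraries as well, with differences of -0.41 ± 0.13 at 2 weeks and -0.24 ± 0.15 at 6 weeks that were not called. The domain chr12:109511177-109513355 differed by -0.58 ± 0.12 at 11 months, from 35.1, 26.3 and 27.1 CPM in WT mice to 20.1, 19.4 and 19.7 CPM in Tau mice. The domain chr12:109660579-109663931, the second highest in level, held 73.0, 80.7 and 70.1 CPM in WT and 65.9, 62.8 and 58.1 CPM in Tau mice, a smaller difference of -0.26 ± 0.07. This last call was lost with the DESeq2 Wald test, without Tau replicate 3 and without WT replicate 2. The remaining domains called lower, chr12:109356895-109357917 and chr12:109793326-109794183, differed by -0.88 and -0.65. The first lost its call without WT replicate 1 (-0.62). The second lost it without WT replicate 1 (-0.40) or Tau replicate 3 (-0.46) and turned to 0.18 with cross correlation as a covariate.

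Cross correlation and genotype did not overlap at 11 months, so enrichment moved with these results. With cross correlation as a covariate the log2 difference of the interval's summed reads was -0.28. The widest domain, at -0.995 ± 0.14 (SE), was the 1 member still called. Over all domains, calls fell in that fit as well, from 3333 lower and 1940 higher to 517 and 178. Errors were larger in that fit, and several differences were about as large as before or larger: -0.63 ± 0.23 for chr12:109213003-109216538, -0.72 ± 0.30 for chr12:109243134-109244893 and -0.68 ± 0.20 for chr12:109565432-109567315. Others were smaller, -0.40 ± 0.59 for chr12:109210863-109211503 and -0.10 ± 0.25 for chr12:109511177-109513355. The lost calls thus differ among themselves in whether the difference or its error changed. Leaving out single libraries gave 8 to 15 members called, with 8 without Tau replicate 3. Over all domains, those runs called 2366 to 3606 lower and 1086 to 2288 higher, with the fewest without Tau replicate 3.

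The members of highest level per kb are given next. The domains with the most reads per length were chr12:109417694-109418942, at 31.7 CPM per kb, and chr12:109415521-109417499, at 28.3 CPM per kb. The second held 60.5, 56.2 and 56.7 CPM in WT and 61.7, 55.7 and 57.8 CPM in Tau mice at 11 months, a log2 difference of 0.02 ± 0.08 (SE), and the first differed by -0.14 ± 0.09. The groups overlapped in both domains, there and in the CK-p25 series. The domain chr12:109513782-109515246, at 26.6 CPM per kb, differed by -0.07 ± 0.09 at 11 months, 0.17 ± 0.13 in CK-p25 at 2 weeks and -0.30 ± 0.15 at 6 weeks, none of them called. Its groups did not overlap in any of these comparisons. This domain begins within 500 bp of the end of chr12:109511177-109513355, which was called lower at 11 months. Next in density were chr12:109544102-109545179 (24.1 CPM per kb), chr12:109660579-109663931 (21.2), chr12:109572556-109573319 (20.8) and chr12:109565432-109567315 (20.6). The second and last of these were called lower at 11 months, as given above, and the others were not called.

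**Figure D2:**
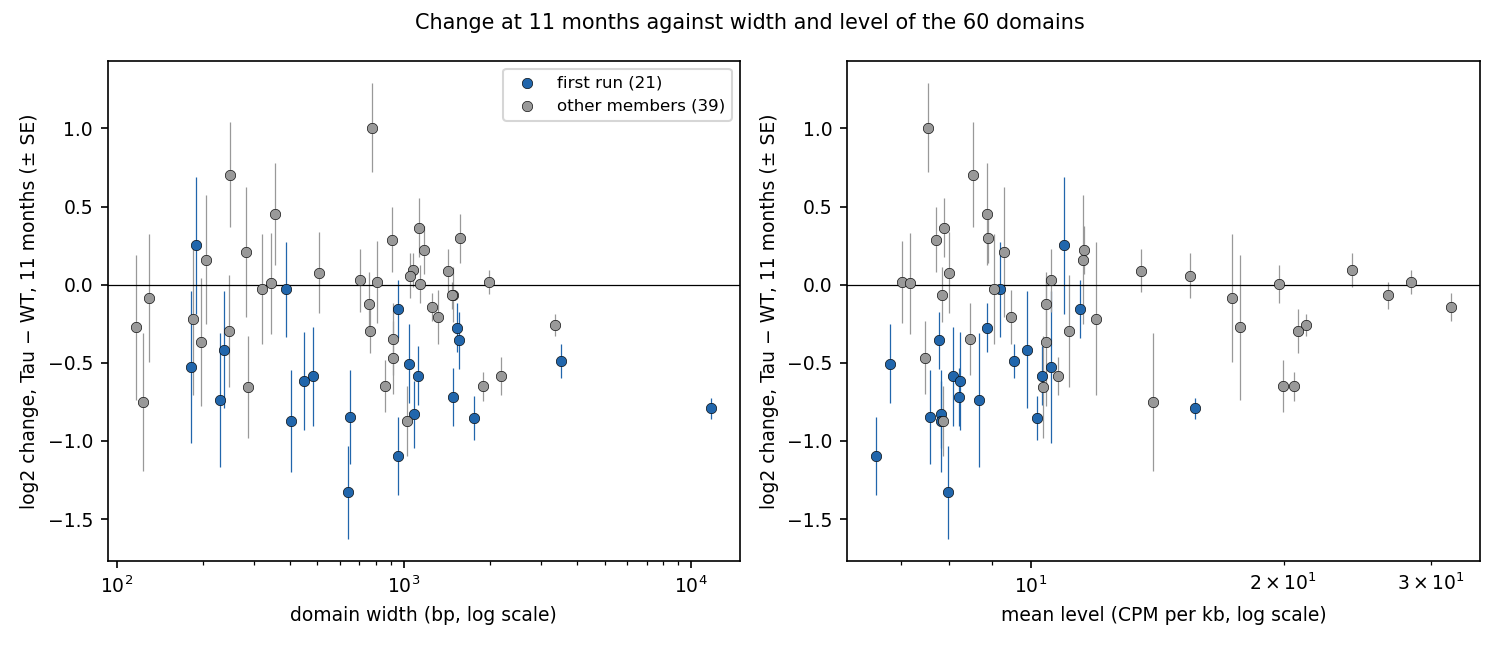
Each point is 1 of the 60 domains, with its log2 difference of Tau from WT at 11 months (bars, SE) against its width in bp and against its mean level in CPM per kb, both on log axes. The 21 domains of the first run are blue and the 39 others grey. The first run lies mostly under 0, at low levels per kb, while the 2 domains of highest CPM per kb lie near 0.

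Across members, correlations of the signed log2 difference with width and with level per kb were weak. Spearman's rho between width and log2 difference was -0.06 at 11 months over 60 members, and rho between CPM per kb and log2 difference was 0.13. For CK-p25 these were 0.05 and 0.03 at 2 weeks and -0.12 and 0.17 at 6 weeks, over 48 members. All members were counted in the same libraries, and these values are descriptive.

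The members of low value gathered at the left of the interval. In the first run 20 of 21 members had a negative value at 11 months, with a median of -0.59 and 8 called lower. In the 39 other members 21 were negative, with a median of -0.06, 5 called lower and 1 called higher. Summed, these others held 594, 572 and 581 CPM in WT mice and 542, 523 and 525 CPM in Tau mice at 11 months, also without overlap. The first run held 374, 402 and 367 CPM in WT mice and 228, 267 and 221 CPM in Tau mice at 11 months. At 6 months it held 379, 373 and 359 CPM in WT mice and 377 and 373 CPM in Tau mice. The Tau libraries thus lay far below WT at 11 months and among them at 6 months.

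In the CK-p25 series 17 members of the first run had enough reads to be tested. Of these 14 were negative at 2 weeks, with a median of -0.19, and 15 at 6 weeks, with a median of -0.42. The summed level at 2 weeks was 373, 388 and 442 CPM in CK and 359, 321 and 321 CPM in CK-p25 mice. At 6 weeks it was 408, 419 and 413 CPM in CK and 286, 357 and 261 CPM in CK-p25 mice. All CK-p25 libraries lay below all CK libraries, by a narrow margin at 2 weeks. The other members had medians of 0.02 at 2 weeks and -0.04 at 6 weeks, and their summed levels overlapped between CK-p25 and CK.

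**Figure D3:**
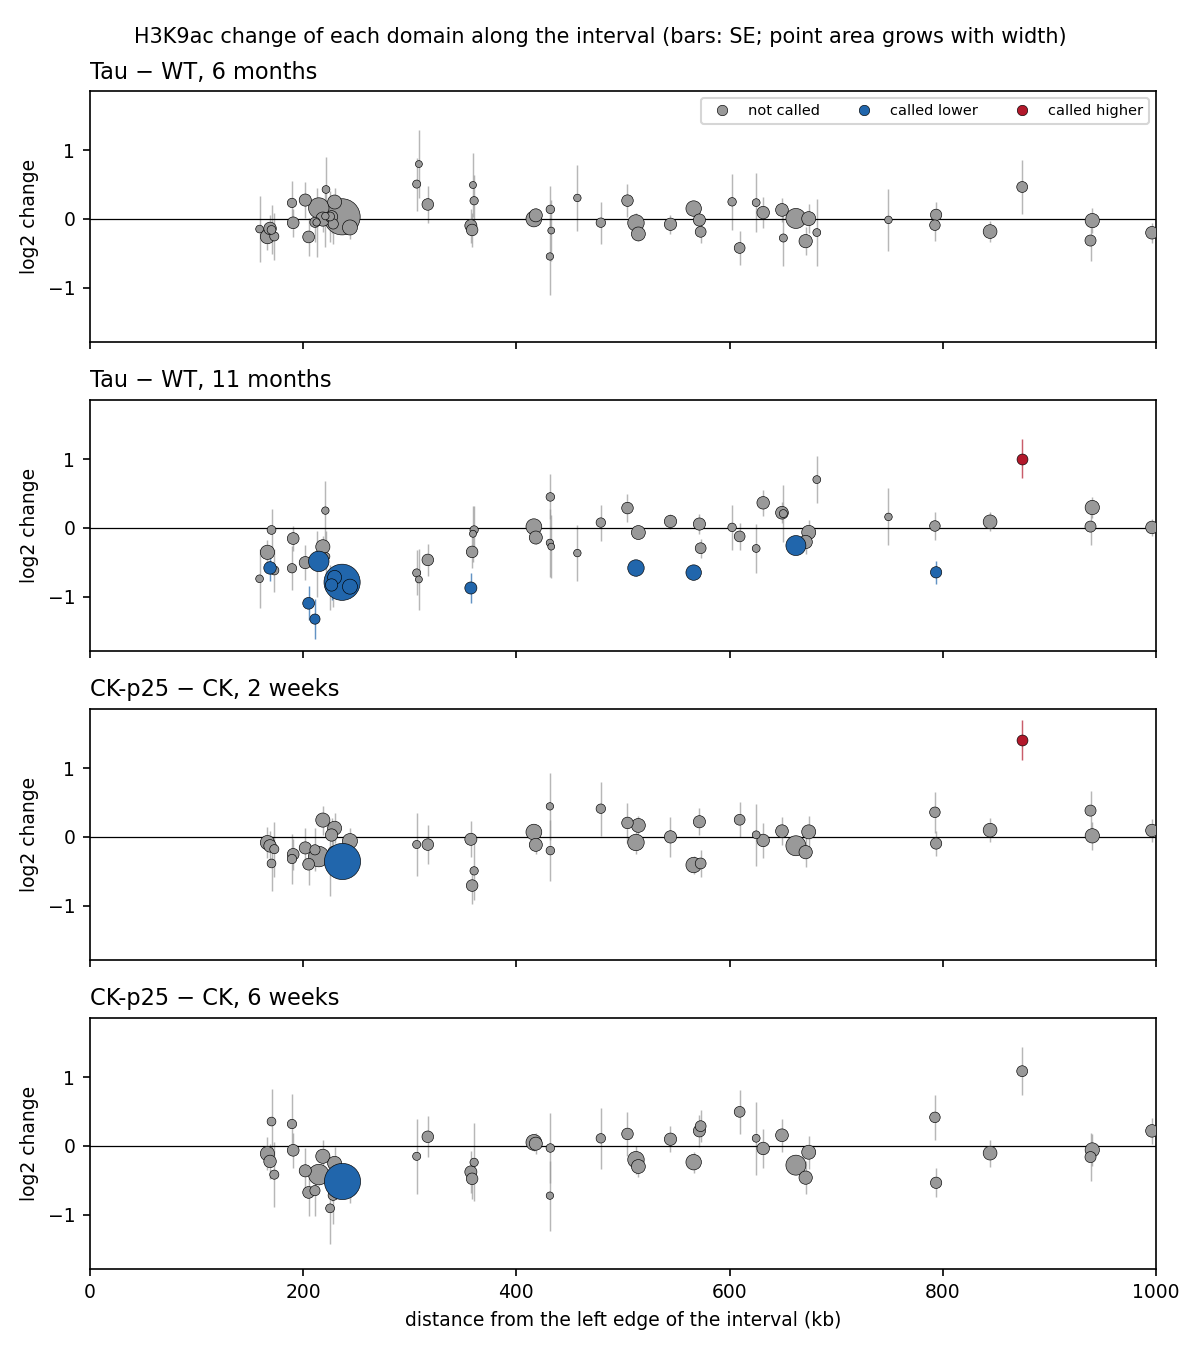
Each point is 1 domain at its distance (kb) from the left edge of the interval, with its log2 difference of disease model from control (bars, SE), the area growing with width. Blue and red mark domains called lower and higher. Blue points gather between 160 and 250 kb at 11 months, the widest domain is blue in 3 of the 4 panels, and 1 domain between 800 and 900 kb is red in Tau at 11 months and in CK-p25 at 2 weeks.

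Summed in windows of 100 kb, the log2 difference at 11 months was -0.70 ± 0.05 (SE) between 200 and 300 kb, the window of the widest domain, and -0.36 ± 0.09 and -0.48 ± 0.12 in the windows on either side. It was -0.01 ± 0.06 between 400 and 500 kb, -0.20 ± 0.05 between 500 and 600 kb, and -0.07 ± 0.05 between 600 and 700 kb. It was -0.33 ± 0.13 between 700 and 800 kb, over 3 domains, and 0.30 ± 0.13 between 800 and 900 kb, over 2 domains. In CK-p25 mice the window from 200 to 300 kb differed by -0.26 ± 0.07 at 2 weeks and -0.47 ± 0.08 at 6 weeks, and the window from 800 to 900 kb by 0.46 ± 0.15 and 0.21 ± 0.17. At 6 months in Tau mice the window from 200 to 300 kb was at 0.05 ± 0.06. The lowest window at 11 months and at 6 weeks was thus that of the widest domain, and negative values were not limited to the left of the interval.

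**Figure D4:**
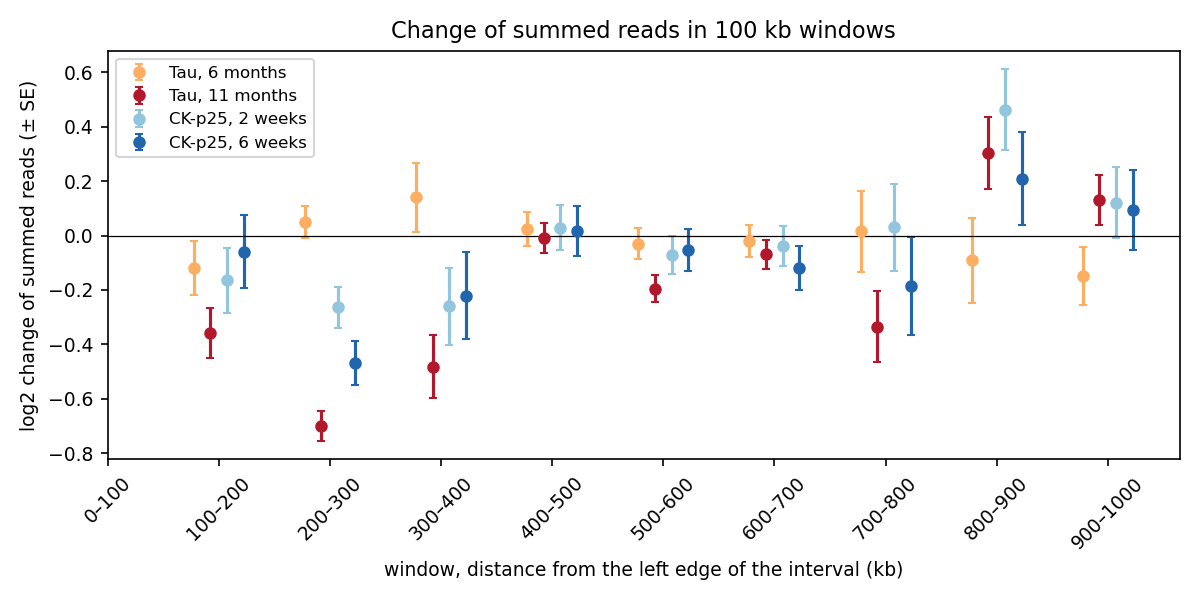
Points give the log2 difference of disease model from control in reads summed over the domains of each 100 kb window (bars, SE), by distance of the window from the left edge of the interval, for the 4 comparisons. The window from 200 to 300 kb holds the lowest values of Tau at 11 months (-0.70) and of CK-p25 at 6 weeks (-0.47), and the first window holds no domain.

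At the edges, the last domain before the interval, chr12:108788087-108788197, differed by -0.95 at 11 months, and the first member, chr12:109159117-109159345, by -0.74. Both are narrow, 111 and 229 bp. The last member, chr12:109995623-109996756, differed by 0.01, and the next domain, chr12:110003526-110005156, by 0.31. Summed, the 4 domains of the 1 Mb before the interval differed by -0.70 ± 0.15 (SE) and the 18 of the 1 Mb after it by -0.10 ± 0.03. On all of chromosome 12, the median of 1817 domains was 0.00. Low values at 11 months thus continued to the left of the interval, over few reads.

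In the CK-p25 series 48 members were tested. The other 12, 117 to 344 bp wide and at 1.72 to 2.61 CPM, did not pass the filter on low counts. At 2 weeks 1 of the 48 was called lower, where 0.613% of 38193 domains were, and 1 was called higher, where 1.51% were. At 6 weeks 1 was called lower, where 1.33% of domains were, and 0 were called higher, where 1.32% were. The medians were -0.08 and -0.15, and 32 of 48 members were negative at 6 weeks, where 50.3% of all domains were. In edgeR 7 of the 48 had an unadjusted p under 0.05 at 6 weeks, as did 4773 of the 38193 domains, a similar share. The single member called lower was the widest domain at both times.

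The 13 members called lower in Tau at 11 months had negative values in 11 cases in CK-p25 mice at 2 weeks, with a median of -0.13, and in 13 of 13 cases at 6 weeks, with a median of -0.42. Only the widest of them was called there. At 6 months in Tau mice 6 were negative and 7 positive, with a median of 0.01. Over all domains, 50.7% were negative in CK-p25 at 2 weeks and 50.3% at 6 weeks. The share among all domains lower in Tau was not determined. Of the 13 members, 8 lie in the first run and all were counted in the same libraries, so they are not independent cases. Of the named domains, chr12:109243134-109244893 held 20.2, 19.1 and 19.5 CPM in CK and 12.2, 12.7 and 14.7 CPM in CK-p25 mice at 6 weeks, without overlap, a log2 difference of -0.62 ± 0.22 (SE). The domain chr12:109213003-109216538 differed by -0.42 ± 0.15 at 6 weeks, from 38.4, 47.4 and 35.9 CPM to 26.8, 35.2 and 29.4 CPM, also without overlap.

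The domain chr12:109874117-109874889, 773 bp wide, moved the other way. In Tau mice at 11 months it held 6.02, 4.12 and 8.65 CPM and in WT mice 3.46, 3.50 and 2.60 CPM. At 2 weeks it held 8.81, 17.5 and 9.18 CPM in CK-p25 and 4.61, 5.16 and 3.08 CPM in CK mice, and at 6 weeks 8.29, 8.37 and 14.7 CPM against 4.80, 4.61 and 3.08 CPM. In these 3 comparisons every disease model library lay above every control library. The log2 differences were 1.01 ± 0.28 (SE) in Tau at 11 months, 1.41 ± 0.29 at 2 weeks and 1.09 ± 0.35 at 6 weeks, the first and second of which were called. At 6 months it held 2.57 and 4.04 CPM in Tau and 1.48, 2.57 and 3.03 CPM in WT mice, a difference of 0.47 ± 0.40 with overlapping groups.

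These gains rest on few reads, 3 to 67 per library. The call at 11 months was lost without Tau replicate 3 (0.70) or WT replicate 3, with the DESeq2 Wald test and with cross correlation as a covariate. The call at 2 weeks was lost without CK-p25 replicate 2, at 0.996.

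The summed reads of the interval, in CPM, were 968, 974 and 948 in WT and 769, 790 and 746 in Tau mice at 11 months, and 935, 911 and 894 in WT and 921 and 898 in Tau mice at 6 months. In the CK-p25 series they were 897, 929 and 967 in CK and 897, 851 and 832 in CK-p25 mice at 2 weeks. At 6 weeks they were 964, 946 and 936 in CK and 798, 858 and 807 in CK-p25 mice. The groups were apart at 11 months and at 6 weeks.

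The log2 differences of these sums were -0.28 ± 0.02 (SE) in Tau at 11 months, 0.00 ± 0.03 at 6 months, -0.09 ± 0.04 in CK-p25 at 2 weeks and -0.18 ± 0.04 at 6 weeks. Without the first run they were -0.08 at 11 months, 0.01 at 2 weeks and -0.04 at 6 weeks. Without the widest domain alone they were -0.18, -0.03 and -0.10. The first run was set apart after its values were seen, so these values describe how the sum is made up and nothing more.

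The difference between ages was followed in the same fit. The Tau effect at 11 minus that at 6 months was called lower in 5 of 60 members, where 3.21% of all domains were, and higher in 0 members, where 1.02% were. It was -0.82 ± 0.10 (SE) on the log2 scale for the widest domain, -0.80 ± 0.14 for chr12:109565432-109567315 and -0.65 ± 0.16 for chr12:109213003-109216538. For the interval's summed reads it was -0.28 ± 0.03, and 21.2% of all 1 Mb bins passed that test in either direction. Without the first run this value was -0.07. These values contain the difference at 11 months and are a description like it. Leaving out single libraries gave 2 to 7 members called, while 776 to 1861 of all domains were called lower and 173 to 711 higher.

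In the CK-p25 series, the effect at 6 minus that at 2 weeks was called in 0 of 48 members, where 0% of all domains were called higher and 0.00524% lower. In edgeR 2 members had an unadjusted p under 0.05, as did 1817 of 38193 domains, and DESeq2 called 0 members. For the summed reads the difference was -0.09 ± 0.05 (SE), and for the widest domain -0.16 ± 0.12. A change of the effect between the times was thus not detected in these libraries.

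Control groups alone were compared as well, a contrast that shares libraries with those above. The interval may have been chosen on values of these same libraries, so the WT differences below are also a description. In WT mice at 11 against 6 months, 1 member was called higher, where 0.959% of all domains were, and 0 lower, where 0.487% were. This was chr12:109565432-109567315, at 52.5, 52.3 and 50.1 CPM against 42.6, 39.7 and 41.2 CPM, a log2 difference of 0.33 ± 0.09 (SE). The call was lost in 9 of 13 alternatives, among them leaving out any of these libraries. The same WT libraries of 11 months are the control of the Tau comparison at that age. The Tau libraries at 11 months, at 30.3, 37.8 and 31.5 CPM in this domain, also lay below all WT libraries of 6 months, which differ from them in age and sex. Whether the difference in WT mice bears on that in Tau mice was not tested.

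For the interval's summed reads, WT mice at 11 months were above those at 6 months by 0.07 ± 0.02 (SE). This passed the threshold over bins in edgeR, as did 7.11% of bins. In CK controls 0 of 48 members differed between 6 and 2 weeks, where 0.00262% of all domains were called higher and 0% lower. In edgeR 0 members had an unadjusted p under 0.05, against 2103 of 38193 domains, and DESeq2 called 0 members. The summed reads differed by 0.03 ± 0.04 with an edgeR adjusted p = 0.856, and 0% of bins passed. The widest domain was at 0.03 ± 0.07 in WT mice between ages and at 0.03 ± 0.08 in CK controls between times, so its control level differed by less than its error.

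Among 1333 other bins of 1 Mb with at least 10 domains, the 3 whose 8 group means were most like those of the interval were on chromosome 19 from 59 to 60 Mb (Pearson's r = 0.991), chromosome 9 from 58 to 59 Mb (r = 0.988) and chromosome 1 from 179 to 180 Mb (r = 0.987). All bins share the same libraries and scaling, and the values are descriptive. The log2 differences in the bin on chromosome 19 were -0.24 in Tau at 11 months, 0.03 at 6 months, -0.11 in CK-p25 at 2 weeks and -0.18 at 6 weeks.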

How the data were processed

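The authors deposited raw read counts for 44165 domains in 23 H3K9ac libraries, and 0 count columns lacked a matching sample. The 22 input libraries have no column and were not analysed here. The domains are a common set called against input, per the series' design text. The score deposited with each domain is 0 throughout and was not used. BWA, Picard 1.1175, MACS2 and mm9 are named, per the submitters' processing notes; their settings are not given in the sources used here.

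Domains were taken where the midpoint lay in the interval. The tau and CK-p25 series used different antibody lots and were fitted apart with edgeR 4.0.16 in R 4.3.3 (TMM, filterByExpr by group, robust quasi-likelihood F test, one mean per group), on all domains and on counts summed in 1 Mb bins. P-values were two-sided, Benjamini-Hochberg adjusted over all domains or bins tested, with a threshold of 0.05. An SE is the log2 difference over the square root of F. The fit was tested on simulated counts. Chi-square per degree of freedom was 1.10 to 1.88 over 22 replicate pairs, above sampling noise, and every library was kept as its own replicate. Reads carry no molecular identifiers, so counting error is a lower limit.

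The members and lists were chosen with earlier results of these data known. Domains were named by rule: the 5 widest, the 5 of highest level, the 5 with the smallest adjusted p in each comparison and direction, those called in 3 comparisons, and those at the edges. Domains named for their density or in the closing section were chosen after their values were seen. Alternatives were DESeq2 1.42.0 size factors or its Wald test, library totals, no filter, a threshold of 0.01, a replicate block, cross correlation as a covariate, the compared groups alone, shifted edges and each library left out.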

Additional observations from a re-analysis of the deposited data

Results flagged for a closer look

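The difference of Tau from WT mice at 11 months minus that at 6 months is listed for the interval and 5 of its domains, where edgeR's quasi-likelihood test of this contrast passed the threshold. The contrast contains the 11-month values that were known when the interval was chosen, so the values are a description and the test supports nothing further. Mice of 6 months were female and mice of 11 months male, so age and sex cannot be told apart. On the log2 scale it was -0.28 for the summed reads of the interval, -0.82 for chr12:109230759-109242501, -0.80 for chr12:109565432-109567315 and -0.65 for chr12:109213003-109216538. It was -0.97 for chr12:109228892-109230374 and -0.73 for chr12:109243134-109244893, which missed the threshold in 9 and 10 of 17 alternatives.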

How the results depend on the processing

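The decrease of the interval's summed reads in Tau at 11 months kept its direction in 17 of 17 alternatives (log2 -0.29 to -0.27 with single libraries left out), as a description of values known when the interval was chosen. With cross correlation as a covariate, members called fell to 1 at 11 months, to 2 for the difference between ages and to 0 for WT between ages, the WT sum was 0.067 and not past the threshold, and chr12:109793326-109794183 turned to 0.18. Calls over all domains fell too in that fit, to 517 lower and 178 higher at 11 months and to 336 and 76 for the difference between ages. With single libraries left out, members called ranged from 8 to 15 at 11 months, 2 to 7 for the difference between ages, 0 to 0 for WT between ages and 0 to 2 in CK-p25 at 2 weeks. Over all domains, those runs called 100 to 153 lower and 186 to 314 higher for WT between ages. In CK-p25 at 2 weeks they called 72 to 325 lower and 318 to 654 higher. A threshold of 0.01 gave 3 members for the difference between ages and 0 for WT between ages. Over all domains it gave 877 lower and 160 higher, and 99 lower and 188 higher. The DESeq2 Wald test gave 3 and 0 members for these contrasts and 1 in CK-p25 at 2 weeks. Over all domains that test gave 849 lower and 157 higher, 56 lower and 137 higher, and 34 lower and 260 higher. The interval's sum at 6 months in Tau mice, near 0, changed sign with DESeq2 size factors (-0.0035), library totals (-0.0022), the Wald test (-0.0036), without the widest member (-0.0087), without the first run (-0.015) and over single libraries left out (-0.014 to 0.0206). The WT sum missed the threshold with DESeq2 size factors (0.0797), library totals (0.0676), no filter (0.0709), the Wald test (0.0797) and single libraries left out (0.0567 to 0.0898). Leaving out the widest member or the first run was chosen after seeing the data. Without the first run the sums were -0.0683 for the difference between ages, 0.0058 in CK-p25 at 2 weeks and -0.035 at 6 weeks, and without the widest member -0.10 at 6 weeks. The cause of these changes was not tested, beyond the reads that each setting removes.

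Correlations by replicate number were small. Deviations of same-numbered libraries correlated at -0.0171 to 0.0827 and those of differently numbered libraries at -0.0733 to 0.0747. Most of the same-numbered values were positive and most of the others negative. These signs are not independent of each other. For example, Tau replicates 1 and 2 at 6 months gave 0.00417 and -0.00417 against WT replicate 1. A weak pairing by number was not settled. With the replicate number as a block, 15 members were called at 11 months, 6 for the difference between ages and 0 for WT between ages. Over all domains, that fit called 3420 lower and 2008 higher at 11 months. It called 1421 and 414 for the difference between ages, and 64 and 89 for WT between ages. The sum was -0.014 in Tau at 6 months and 0.0449 for WT between ages, the second of which no longer passed the threshold.

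Narrow domains limit what can be said: those with few reads have large errors, and 12 narrow ones could not be tested in the shallower CK-p25 series.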
